A study of Mus musculus with 7 samples.

Results

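Collagens, the enzymes that crosslink and cleave them, and other genes of the extracellular matrix were examined in liver RNA from 7 male mice. The set was drawn up by gene name, with earlier results of these data known, and held 80 genes of the 23347 in the deposited count table. It comprised the collagen chains, the matrix metalloproteinases, the tissue inhibitors of metalloproteinases, the lysyl oxidases, and *Acta2*, *Des*, *Pdgfrb*, *Fn1*, *Sparc*, *Dcn* and *Lum*. Of these 80 genes, 61 had at least 10 counts in at least 3 libraries, and the same 61 passed the filter for testing. The other 19 genes reached at most 21 counts in any mouse, and *Mmp21* was at 0 counts in all 7 libraries. The mice were on a C57BL/6 background, were put on the diet as young adults, and ate CDAHFD, a high-fat diet of defined amino acids that lacks choline and brings on steatohepatitis with scarring, for 15 weeks. The 4 controls were *B4galt1* flox/flox littermates, in which *B4galt1* carries recombination sites (labeled WT). In the other 3 mice, labeled B4galt1-HKO and called *B4galt1* hep-/- here, a Cre recombinase driven by the albumin promoter was meant to delete the gene in hepatocytes, so the other liver cells keep it. Both groups ate the CDAHFD, chow-fed livers were not analysed here, and each liver gave 1 library.

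Collagen fibers in a scarring liver are laid down mostly by activated stellate cells and portal fibroblasts, which assemble collagen types I and III into fibrils and crosslink them through lysyl oxidases. Metalloproteinases cleave collagen, elastin and basement membrane, and the tissue inhibitors of metalloproteinases block them. Hepatocytes, the cells meant to lose *B4galt1*, make little fibrillar collagen, while macrophages are a main source of several metalloproteinases. *B4galt1* encodes a galactosyltransferase that adds galactose to the sugar chains of glycoproteins. The comparison addressed whether the matrix program of the steatohepatitic liver differed between the genotypes.

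Library totals were 37838654 to 39668509 counts in *B4galt1* flox/flox livers and 30608271 to 34586588 in livers labeled *B4galt1* hep-/-. *B4galt1* itself stood at 48.7 to 53.0 CPM (counts scaled to a library of fixed size after TMM normalization, which sets libraries on a common scale from genes without extreme change) in the controls. In livers labeled hep-/- it was 28.4, 23.9 and 53.7 CPM in replicates 1, 2 and 3, so the third of these was not below the controls. The targeted exons are not named in the sources used here, other liver cells keep the gene, and *B4galt1* over the whole group did not pass the test (log2 fold change -0.52, edgeR adjusted p = 0.181). Mitochondrially encoded transcripts took 5.79% ± 1.695 (SD, n = 4) of counts in the controls and 19.7% ± 4.58 (SD, n = 3) in livers labeled hep-/-. The 61 genes examined here took 0.445% ± 0.0885 and 0.316% ± 0.0585 of counts in the same groups.

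Of the matrix genes, 4 metalloproteinases, the inhibitor *Timp2* and the proteoglycan gene *Lum* fell, the main scar collagens did not pass the test, and 4 minor collagens rose. Calls required edgeR's quasi-likelihood test over all 15179 tested genes to give a Benjamini-Hochberg p under 0.05 together with a log2 fold change beyond 0.58 in either direction. By that rule 10 of the 61 genes were called, or 16.4%, where 15.8% of all tested genes were called. *Mmp12*, *Mmp13*, *Mmp15*, *Mmp19*, *Timp2* and *Lum* were the 6 called lower (9.84%, against 7.83% of all tested genes). *Col4a3*, *Col5a3*, *Col11a2* and *Col27a1* were the 4 called higher (6.56%, against 8% of all tested genes). The share of the set that was called was thus near that of all genes. In CPM, the groups did not overlap in 12 of the 61 genes (19.7%), where they did not overlap in 28.6% of all tested genes. The median log2 fold change was 0.09 over the 61 genes and 0.02 over all tested genes. Between mice of a genotype, the median log2 level of the 61 genes, relative to each gene's mean, had an SD of 0.38. Without replicate 3 labeled hep-/-, whose *B4galt1* level matched the controls, 8 of 64 genes were called (12.5%, against 13.8% of all genes in that fit): *Mmp12*, *Mmp19* and *Fn1* lower, and *Col4a3*, *Col4a5*, *Col5a3*, *Col11a2* and *Col27a1* higher.

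**Figure D1:**
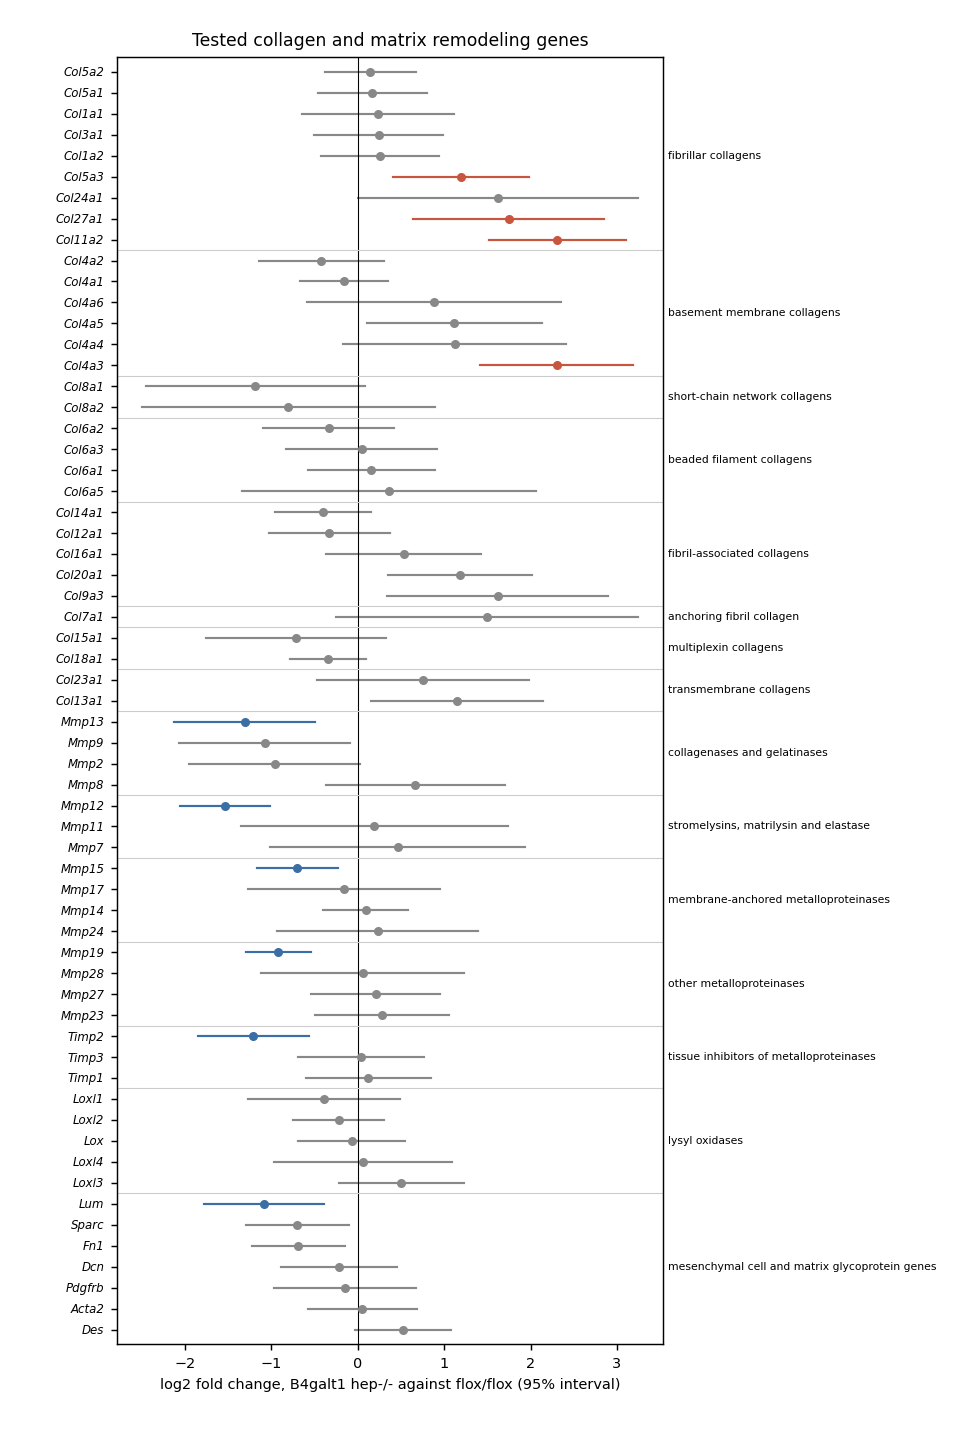
Log2 fold change of livers labeled B4galt1 hep-/- (n = 3) against flox/flox livers (n = 4) for the 61 tested genes, grouped by class, with the 95% interval of edgeR's fit as a line. Blue marks the 6 genes called lower, red the 4 called higher and gray the other genes, and the intervals of Col1a1, Col1a2, Col3a1 and Acta2 all cross 0.

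The level of a gene relative to another was read from FPKM, the fragment count scaled by gene length and library size, which the authors deposited beside the counts. *Dcn*, which encodes decorin, a small proteoglycan that binds collagen fibrils, had the highest mean of the set in the controls, 247 FPKM. *Mmp12*, the macrophage elastase, came next at 134 FPKM, and *Fn1*, which encodes fibronectin, followed at 121 FPKM. *Col18a1*, a collagen of vascular and epithelial basement membranes that hepatocytes also make, was at 77.3 FPKM and *Sparc*, a collagen-binding matricellular glycoprotein, at 72.5 FPKM. *Col3a1* led the fibrillar collagens at 42.9 FPKM, above *Col1a2* at 28.1 FPKM and *Col1a1* at 23.1 FPKM. *Col3a1* was above both type I chains in each of the 4 controls, although the ranges over mice overlapped, and its FPKM ratio to *Col1a1*, chosen after the values were seen, was 1.30 to 2.90. *Col1a1* and *Col1a2* had no fixed order, as *Col1a1* was just above *Col1a2* in control replicate 1 and below it in the other controls. In livers labeled hep-/-, *Mmp12* averaged 42.7 FPKM, close to *Col3a1* at 46.4 FPKM.

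**Figure D2:**
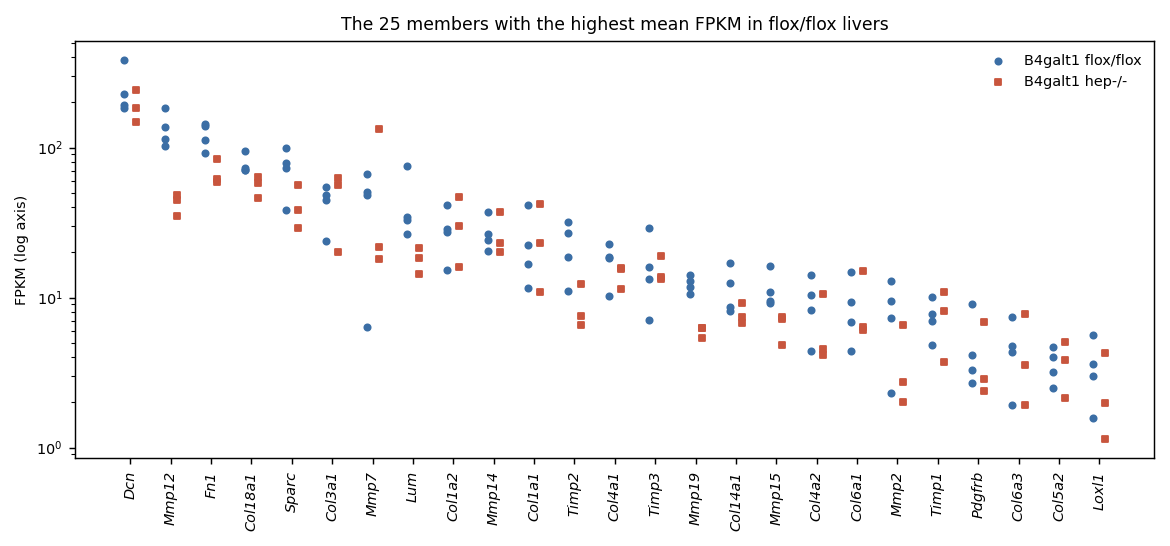
FPKM per mouse on a log axis for the 25 genes of the set with the highest mean in flox/flox livers, with circles for the 4 flox/flox mice and squares for the 3 mice labeled B4galt1 hep-/-. Dcn, Mmp12 and Fn1 lead in the controls, and on this scale the genotypes do not overlap for Mmp12, Fn1, Col18a1, Lum, Mmp19 and Mmp15.

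The metalloproteinases held 15 tested genes of the 21 in the table, of which 4 fell and 0 rose (11 did not pass the test), where 7.83% of all tested genes fell. The median log2 fold change of the 15 was 0.06. *Mmp12* stood at 375, 517, 642 and 410 CPM in flox/flox replicates 1 to 4. In livers labeled hep-/- it was 186, 169 and 150 CPM. Every liver labeled hep-/- lay below every control. This was a log2 fold change of -1.53 ± 0.24 (SE), a 2.89-fold lower level, with an edgeR adjusted p of 0.00408. *Mmp12* was called in each of 18 alternative analyses, including each of the 7 that left out 1 mouse.

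*Mmp19*, a metalloproteinase that cleaves basement membrane components, was the steadiest of these genes among the controls, at 42.5, 44.2, 37.5 and 39.1 CPM. It was 20.5, 19.8 and 24.5 CPM in livers labeled hep-/-, again with no overlap. With a log2 fold change of -0.92 ± 0.17 (edgeR adjusted p = 0.00816), *Mmp19* was also called in each of 18 alternatives. It overlaps the gene *Tmem198b*, which stood at 4.50 to 7.21 CPM. *Mmp13*, the main interstitial collagenase of rodents, was low in both groups. It was 2.55, 5.50, 3.82 and 6.55 CPM in controls against 2.24, 1.60 and 1.74 CPM, which did not overlap, with a log2 fold change of -1.31 ± 0.37 (edgeR adjusted p = 0.0367). That call rested on the full set of mice: the adjusted p was 0.0191 without control replicate 1, and between 0.0533 and 0.108 when any other mouse, control or labeled hep-/-, was left out. *Mmp15*, a membrane-anchored metalloproteinase, was 61.2, 47.1, 38.0 and 42.7 CPM in controls against 34.3, 29.4 and 23.7 CPM. The groups did not overlap, and the log2 fold change was -0.70 ± 0.21 (edgeR adjusted p = 0.0468). It stayed called without control replicate 3 (adjusted p = 0.0480) and not without any other single mouse (0.0526 to 0.122).

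**Figure D3:**
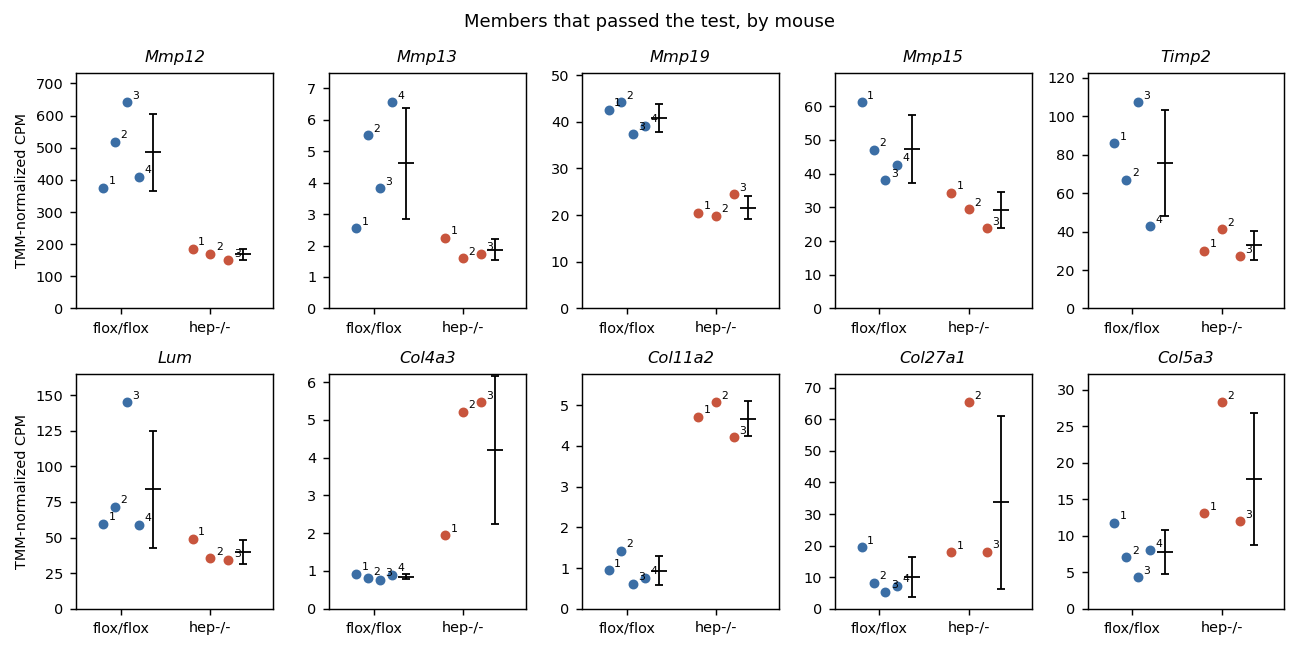
TMM-normalized CPM per mouse for the 10 genes that passed the test, with the replicate number beside each point and the mean ± SD as a bar. Mmp12 and Mmp19 are apart in every mouse, Col11a2 and Col4a3 are low in all 4 controls, and Col27a1 overlaps between genotypes.

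*Mmp12* and *Mmp13* lie next to each other on chromosome 9 in RefSeq's annotation of GRCm38.p6, in a cluster that also holds *Mmp8*, *Mmp27* and *Mmp7*, which were not called (adjusted p of 0.352, 0.701 and 0.665; these 3 were named after their values were seen). The 250 bases before the annotated start are shown for the 4 genes that fell and had an entry in RefSeq's promoter table, to set the metalloproteinases beside their inhibitor *Timp2*. They were taken from build GRCm38.p6, whereas the counts were made on GRCm39. Capitals mark 3 motifs searched on both strands: the AP-1 site TGANTCA, the TATA box TATAAA and the GC box GGGCGG.
Mmp12, second annotated start, chr9:7347124-7347373, plus strand: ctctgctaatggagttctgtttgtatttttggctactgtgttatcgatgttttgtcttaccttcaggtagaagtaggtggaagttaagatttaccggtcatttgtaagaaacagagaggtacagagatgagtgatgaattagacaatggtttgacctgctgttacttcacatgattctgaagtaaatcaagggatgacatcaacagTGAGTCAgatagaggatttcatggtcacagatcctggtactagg
Mmp13, chr9:7272264-7272513, plus strand: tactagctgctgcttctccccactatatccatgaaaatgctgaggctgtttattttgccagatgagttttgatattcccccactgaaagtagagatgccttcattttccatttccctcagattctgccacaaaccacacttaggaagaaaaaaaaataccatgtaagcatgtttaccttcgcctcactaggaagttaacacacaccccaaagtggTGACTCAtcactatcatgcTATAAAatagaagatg
Timp2, chr11:118355412-118355661, minus strand: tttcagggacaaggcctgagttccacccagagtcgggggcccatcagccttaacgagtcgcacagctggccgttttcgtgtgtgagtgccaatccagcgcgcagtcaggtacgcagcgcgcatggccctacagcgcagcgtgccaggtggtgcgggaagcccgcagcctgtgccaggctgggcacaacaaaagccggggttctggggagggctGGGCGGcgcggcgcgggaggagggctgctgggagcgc
Mmp15, chr8:95352046-95352295, plus strand: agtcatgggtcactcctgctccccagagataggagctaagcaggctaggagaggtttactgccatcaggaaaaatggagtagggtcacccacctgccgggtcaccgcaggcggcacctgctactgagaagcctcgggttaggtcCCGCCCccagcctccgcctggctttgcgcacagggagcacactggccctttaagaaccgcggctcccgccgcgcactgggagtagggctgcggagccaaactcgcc

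The *Mmp12* and *Mmp13* windows each held 1 AP-1 match, which began 44 and 35 bases before the start. AP-1 is the dimer of Fos and Jun proteins through which growth factors and cytokines act on many metalloproteinase genes. *Mmp13* also held a TATA box 16 bases before its start, overlapping no AP-1 match. The *Timp2* and *Mmp15* windows each held 1 GC box and neither of the other motifs. Over 32851 promoter windows of the same length, 6.75% held the AP-1 motif, 12.4% the TATA box and 32.7% the GC box. Promoters were found for 43 of the 61 genes, in 48 windows, of which 4 held AP-1 (8.33%), 5 the TATA box (10.4%) and 27 the GC box (56.2%). The other *Mmp12* window, at an earlier start, held none of the 3 motifs. Of the genes that rose, whose windows are not printed, *Col11a2* held 1 TATA box and 2 GC boxes, *Col5a3* 2 GC boxes and *Col27a1* 1 GC box. A match is a description of these letters, and binding was not measured.

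The other collagenases and gelatinases did not pass the test. *Mmp9*, gelatinase B, a product of neutrophils and macrophages, was 0.897, 1.23, 1.52 and 1.55 CPM in controls and 0.779, 0.603 and 0.460 CPM in livers labeled hep-/-. Its groups did not overlap, but with 14 to 65 counts per library its log2 fold change of -1.08 (95% interval -2.07 to -0.08) had an edgeR adjusted p of 0.123. *Mmp2*, gelatinase A, a product of stellate cells and fibroblasts, was 35.96, 23.2, 28.0 and 7.94 CPM against 7.14, 19.5 and 10.03 CPM. Control replicate 4 lay among the livers labeled hep-/-, and the log2 fold change was -0.96 (-1.94 to 0.03; edgeR adjusted p = 0.162). Without that control, *Mmp2* was called (log2 fold change -1.25, adjusted p = 0.0450). With all mice it was called by edgeR when genes with at least 1 count were kept (-0.99, adjusted p = 0.0426). *Mmp14*, which sits in the cell membrane and activates pro-gelatinase A, was 123, 101, 72.4 and 97.5 CPM in controls and 97.8, 130 and 87.5 CPM in livers labeled hep-/-, with a log2 fold change of 0.09 (-0.40 to 0.58). *Mmp7*, matrilysin, an epithelial protease named after its values were seen, ranged widely within both groups. It was 47.0, 56.0, 68.6 and 7.63 CPM in controls and 26.7, 136 and 22.9 CPM in livers labeled hep-/-. The 8 metalloproteinases outside the naming rule, *Mmp7* and *Mmp8* among them, had log2 fold changes of -0.16 to 0.67 and adjusted p-values of 0.352 to 0.954.

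Of 3 tested inhibitors of metalloproteinases, 1 fell and 0 rose, where 7.83% of all tested genes fell. *Timp2*, an inhibitor that also takes part in activating pro-gelatinase A, was 86.0, 66.9, 107 and 42.8 CPM in controls. In livers labeled hep-/- it was 30.0, 41.3 and 27.2 CPM, so the highest of these lay just under the lowest control. In FPKM, which lacks the TMM factors, replicate 2 labeled hep-/- (12.3) lay above control replicate 4 (11.1), so the groups overlapped. *Timp2* was 2.31-fold lower, a log2 fold change of -1.21 ± 0.29 (edgeR adjusted p = 0.0208). The adjusted p was 0.0570 without replicate 1 labeled hep-/- and 0.0582 without replicate 3 labeled hep-/-, and it stayed under 0.05 when any other mouse was left out. *Timp1*, the inhibitor that rises in scarring livers, was 7.82, 6.88, 4.01 and 6.64 CPM against 7.99, 8.96 and 3.78 CPM. Its log2 fold change was 0.13 (-0.60 to 0.85; edgeR adjusted p = 0.819). *Timp3*, which is bound to the matrix, was 65.1, 62.0, 126 and 35.5 CPM against 71.0, 81.7 and 70.4 CPM, with a log2 fold change of 0.04 (-0.69 to 0.77). The ratio of *Timp2* to *Timp3* FPKM within a liver was 1.71, 1.39, 1.10 and 1.56 in controls and 0.545, 0.653 and 0.499 in livers labeled hep-/-, with no overlap. That ratio was chosen after the values were seen, so no test is given. *Timp4* had at most 1 count in any library. *Timp1*, *Timp2* and *Timp3* each overlap another annotated gene (*Syn1*, *Cep295nl* and *Syn3*), and whether the counting used strand is not given in the sources used here. *Cep295nl* was at most 0.351 CPM, *Syn1* at most 1.05 CPM and *Syn3* at most 1.96 CPM in any library.

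Fibrillar collagens had 9 tested genes, of which 3 rose and 0 fell (6 did not pass), where 8% of all tested genes rose. All 9 had positive log2 fold changes with a median of 0.26. That sign depended on single mice for some chains. Without replicate 2 labeled hep-/-, *Col1a1* and *Col1a2* were at -0.20 and -0.039. Without replicate 1 labeled hep-/-, *Col3a1* was at -0.13. The chains of types I and III, which form the bulk of scar collagen, were not among those that rose. *Col1a1* was 216, 132, 92.0 and 73.0 CPM in controls and 151, 229 and 73.0 CPM in livers labeled hep-/-. The lowest mouse of each group had the same level, and the spread within a group was larger than the difference between groups. *Col1a1* had a log2 fold change of 0.23, with a 95% interval of -0.65 to 1.11 (edgeR adjusted p = 0.720). *Col1a2*, the other chain of type I, was 189, 143, 138 and 84.6 CPM against 175, 227 and 95.2 CPM, a log2 fold change of 0.26 (-0.43 to 0.94; edgeR adjusted p = 0.600). *Col3a1* was 264, 249, 251 and 141 CPM against 386, 290 and 127 CPM, a log2 fold change of 0.24 (-0.50 to 0.99; edgeR adjusted p = 0.651). The upper bounds of these 3 intervals exceed the 0.58 used for calls. Summed over the 11 fibrillar chains, the level was 345 to 755 CPM in controls and 361 to 904 CPM in livers labeled hep-/-. The FPKM ratio of *Col1a1* to *Col1a2*, whose proteins join 2 to 1 in the type I triple helix, overlapped between the groups (0.586 to 1.011 and 0.676 to 0.886).

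**Figure D4:**
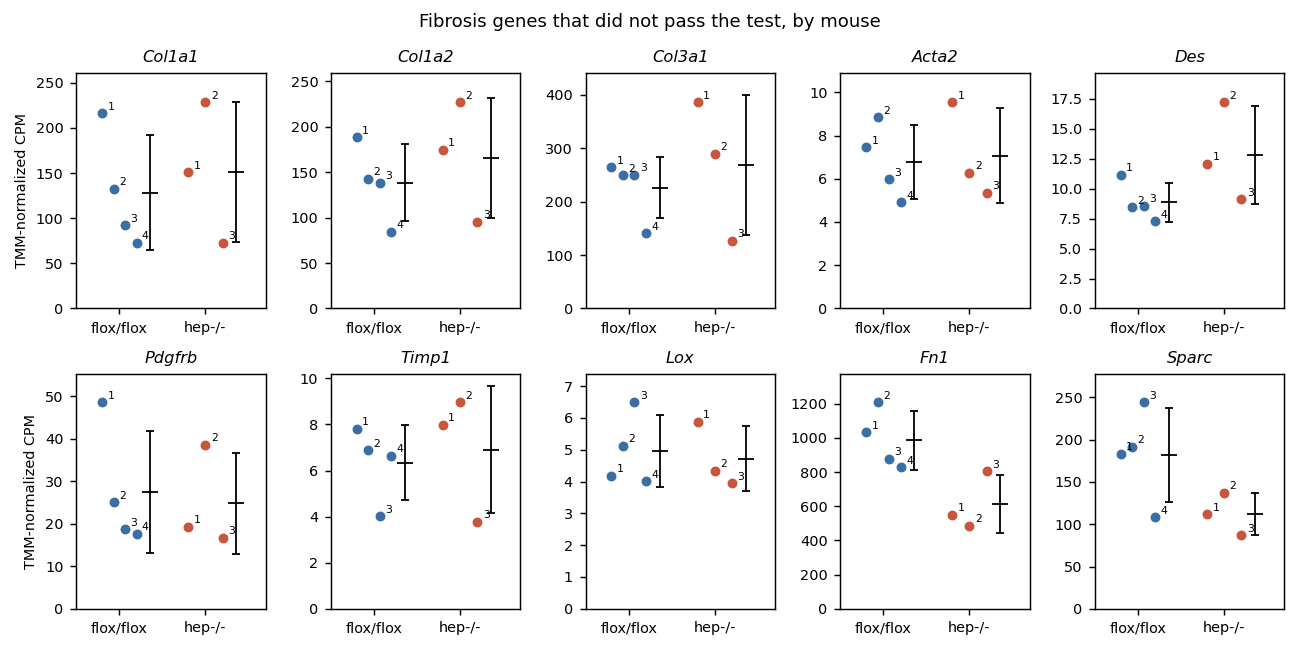
TMM-normalized CPM per mouse for 10 fibrosis genes that did not pass the test, with the replicate number beside each point and the mean ± SD as a bar. The genotypes overlap for each gene but Fn1, and for Col1a1 and Col1a2 the lowest mouse is replicate 4 among the controls and replicate 3 among livers labeled B4galt1 hep-/-.

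The collagens that rose were minor chains. *Col11a2*, a chain of the type XI collagen that sits in the core of thin fibrils, was 0.943, 1.43, 0.609 and 0.763 CPM in controls. It was 4.71, 5.07 and 4.21 CPM in livers labeled hep-/-, with no overlap and little spread. The log2 fold change was 2.31 ± 0.36 (edgeR adjusted p = 0.00431), a 4.96-fold higher level, from 26 to 168 counts per library. *Col5a3*, a type V chain that joins thin fibrils and pericellular matrix, was 11.8, 7.08, 4.33 and 7.996 CPM against 13.1, 28.3 and 12.01 CPM. The groups did not overlap, though control replicate 1 lay just under 2 of the livers labeled hep-/-, and the log2 fold change was 1.19 ± 0.36 (edgeR adjusted p = 0.0445). In FPKM they did overlap, with control replicate 1 at 2.20 and replicates 1 and 3 labeled hep-/- at 1.93 and 1.73. The adjusted p of *Col5a3* was 0.0222 without control replicate 1 and 0.0392 without replicate 3 labeled hep-/-, and between 0.0509 and 0.208 without any other single mouse. Without replicate 2 labeled hep-/-, its highest mouse, the log2 fold change was 0.69. *Col27a1*, a fibrillar collagen of cartilage, was 19.4, 8.13, 5.41 and 7.23 CPM against 17.9, 65.4 and 18.0 CPM, so that control replicate 1 exceeded 2 of the livers labeled hep-/-. Its log2 fold change was 1.75 ± 0.50 (edgeR adjusted p = 0.0382). The log2 fold change of *Col27a1* was 0.83 without replicate 2 labeled hep-/- (adjusted p = 0.215), and its adjusted p was 0.108, 0.0910 and 0.0880 without control replicates 2, 3 and 4. DESeq2 did not call it (adjusted p = 0.0525). *Col24a1*, another minor fibrillar chain, had 1 to 28 counts per library and a log2 fold change of 1.63 (0.01 to 3.25) that did not pass (edgeR adjusted p = 0.150).

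Among the chains of type IV collagen, which forms the mesh of basement membranes, 1 of 6 tested genes rose and 0 fell. Of all tested genes, 8% rose. *Col4a3*, a chain best known from the glomerular basement membrane, was 0.920, 0.803, 0.773 and 0.904 CPM in controls and 1.95, 5.22 and 5.46 CPM in livers labeled hep-/-. The controls were tightly grouped, and every liver labeled hep-/- was above all of them. *Col4a3* had a log2 fold change of 2.30 ± 0.40 (edgeR adjusted p = 0.00631), from 32 to 173 counts per library. *Col4a3* and *Col11a2* were called in 15 of their 16 alternatives, with each single mouse left out among them. *Col4a1*, which pairs with *Col4a2* in the type IV collagen of most tissues, was 132, 121, 114 and 71.9 CPM against 83.4, 94.7 and 118 CPM, a log2 fold change of -0.15 (-0.66 to 0.36; edgeR adjusted p = 0.677). The FPKM ratio of *Col4a3* to *Col4a1* was 0.00488 to 0.00928 in controls and 0.0172 to 0.0407 in livers labeled hep-/-. *Col4a3* and *Col4a4* are neighbors that overlap at their starts, where reads cannot be told apart without strand, and *Col4a4* did not pass (log2 fold change 1.12, edgeR adjusted p = 0.208). *Col4a3* also overlaps *C430014B12Rik*, which stood at 0.483 to 0.656 CPM in controls and 0.543 to 1.07 CPM in livers labeled hep-/-.

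Of the other collagen classes, 0 of 16 tested genes were called, where 15.8% of all tested genes were. In some alternatives, however, 4 of these 16 were called higher. DESeq2 called *Col9a3*, *Col13a1* and *Col20a1* (*Col13a1* is named after its values were seen). With edgeR, *Col9a3* and *Col13a1* were called when genes with at least 1 count were kept, *Col20a1* when 10 counts were required in every library, and *Col7a1*, *Col9a3* and *Col20a1* without control replicate 1. *Col13a1* was also called without control replicate 3. *Col6a1*, a chain of the type VI collagen that forms beaded filaments around cells, was 51.2, 27.2, 34.3 and 18.6 CPM against 28.0, 54.8 and 27.3 CPM. Its log2 fold change was 0.16 (-0.57 to 0.89; edgeR adjusted p = 0.771). *Col18a1* was 638, 539, 498 and 593 CPM against 392, 447 and 502 CPM, a log2 fold change of -0.34 (-0.78 to 0.09; edgeR adjusted p = 0.255). Replicate 3 labeled hep-/- lay above the lowest control in CPM, while in FPKM, which lacks the TMM factors, the groups did not overlap (70.4 to 95.3 against 46.3 to 63.4). *Col20a1*, a fibril-associated collagen, did not overlap between the groups, at 1.72, 1.205, 0.843 and 1.24 CPM against 2.01, 3.68 and 2.86 CPM. In FPKM it did, with 0.311 in control replicate 1 and 0.287 in replicate 1 labeled hep-/-. Its log2 fold change of 1.18 had an edgeR adjusted p of 0.0558 and a DESeq2 adjusted p of 0.0141. *Col9a3*, a chain of the cartilage collagen type IX, was 1.33, 0.552, 0.726 and 0.396 CPM against 1.36, 4.55 and 1.05 CPM, with a log2 fold change of 1.62 (edgeR adjusted p = 0.0800, DESeq2 adjusted p = 0.0241). *Col7a1*, the collagen of anchoring fibrils, was 0.897 CPM in control replicate 1 and at most 0.164 CPM in the other controls, against 0.552 to 1.05 CPM. Its log2 fold change was 1.497 (edgeR adjusted p = 0.215) with all mice and 2.98 (adjusted p = 0.0169) without control replicate 1, from 2 to 39 counts per library. *Col8a1*, a short-chain collagen of vessel walls, had a log2 fold change of -1.18 (edgeR adjusted p = 0.179). The 15 tested collagens not described one by one, of any class, had log2 fold changes of -0.80 to 1.15 and adjusted p-values of 0.104 to 0.948. Over all collagens, 22 of 31 tested genes had positive log2 fold changes and 9 negative ones, with a median of 0.26.

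None of the 5 lysyl oxidases, the copper enzymes that crosslink collagen and elastin, was called, and 6 of the 7 mesenchymal and matrix glycoprotein genes were not called either. Of all tested genes, 15.8% were called. Over the whole set, 18 of the 61 genes had an unadjusted p under 0.05 (29.5%, against 32.9% of all tested genes). *Lox* was 4.18, 5.12, 6.49 and 4.01 CPM against 5.88, 4.34 and 3.95 CPM, with a log2 fold change of -0.07 (-0.69 to 0.55). *Loxl1*, which acts mostly on elastic fibers, was 16.5, 11.97, 9.28 and 5.65 CPM against 7.37, 13.2 and 4.31 CPM. *Loxl2*, which acts on type IV and fibrillar collagen, was 12.9, 9.81, 11.6 and 7.49 CPM against 10.1, 9.44 and 7.37 CPM. The groups overlapped for each of these 3 enzymes, and the adjusted p-values of *Loxl1* and *Loxl2* were 0.537 and 0.560. *Loxl3* and *Loxl4* had log2 fold changes of 0.50 and 0.06.

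*Acta2*, which encodes alpha smooth muscle actin, the marker of activated stellate cells and of smooth muscle, was 7.45, 8.83, 5.97 and 4.92 CPM in controls. It was 9.54, 6.27 and 5.36 CPM in livers labeled hep-/-. The log2 fold change was 0.05, with a 95% interval of -0.57 to 0.68 (edgeR adjusted p = 0.914). *Des*, the desmin of stellate cells, was 11.2, 8.43, 8.57 and 7.29 CPM against 12.1, 17.2 and 9.11 CPM, a log2 fold change of 0.53 (-0.03 to 1.08; edgeR adjusted p = 0.170). *Pdgfrb*, the receptor through which platelet-derived growth factor drives stellate cells, was 48.5, 25.02, 18.7 and 17.5 CPM against 19.3, 38.5 and 16.7 CPM. Its log2 fold change was -0.15 (-0.97 to 0.68; edgeR adjusted p = 0.815).

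*Lum*, which encodes lumican, a small proteoglycan of collagen fibrils, was the one gene of its class that fell. It was 59.8, 71.4, 145 and 59.0 CPM in controls and 49.3, 35.3 and 34.1 CPM in livers labeled hep-/-, a log2 fold change of -1.08 ± 0.32 (edgeR adjusted p = 0.0410). The groups did not overlap, and control replicate 3 was well above the other controls. Without that mouse the log2 fold change was -0.68 (adjusted p = 0.0652), and without control replicate 2 or replicate 2 or 3 labeled hep-/- the adjusted p was 0.0740, 0.102 and 0.104. *Dcn*, the neighboring proteoglycan gene, was 353, 382, 750 and 515 CPM against 566, 288 and 440 CPM, with a log2 fold change of -0.21 (-0.88 to 0.46). *Fn1* was 1031, 1207, 878 and 826 CPM in controls and 548, 485 and 805 CPM in livers labeled hep-/-. The groups did not overlap, but the log2 fold change of -0.69 (-1.23 to -0.15) had an edgeR adjusted p of 0.0786. Replicate 3 labeled hep-/- was the closest to the controls, and without it *Fn1* was called (log2 fold change -0.94, adjusted p = 0.0307). *Fn1* was also called lower by DESeq2 (-0.68, adjusted p = 0.0285) and by limma among genes reaching an FPKM of 1, with pseudocounts of 1 and 0.1 (adjusted p = 0.0149 and 0.0147). *Sparc* was 183, 192, 244 and 108 CPM against 112, 137 and 87.0 CPM, with a log2 fold change of -0.70 (-1.30 to -0.10; edgeR adjusted p = 0.101). Without control replicate 4, the control that overlapped the other group, *Sparc* was called (log2 fold change -0.88, adjusted p = 0.0437).

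Other genes that make, process or instruct the matrix were read from 4 lists, in which 14 of 105 tested genes were called (13.3%, against 15.8% of all tested genes), 10 lower and 4 higher, with a median log2 fold change of -0.05. In the list of collagen processing, 2 of 22 fell and 2 rose. *Ctsk*, the collagen-degrading cathepsin K, was 18.3 to 29.2 CPM in controls and 10.9 to 11.6 CPM in livers labeled hep-/- (log2 fold change -0.99, edgeR adjusted p = 0.0114). *Colgalt1*, which adds galactose to collagen hydroxylysine, was 87.9 to 108 CPM against 49.5 to 63.6 CPM (-0.75, edgeR adjusted p = 0.0207). *Plod2*, the lysyl hydroxylase of collagen telopeptides, was 3.42 to 5.08 CPM against 7.70 to 17.0 CPM (1.48, edgeR adjusted p = 0.00896), and *Adamts14*, a procollagen N-proteinase, also rose (1.28, edgeR adjusted p = 0.0488). In the list of other matrix structure, 2 of 35 fell, *Prelp* and *Tgfbi* (log2 fold changes -1.32 and -0.80), and 0 rose. Of 15 tested ADAM and ADAMTS proteases, *Adam9* fell (-1.07) and *Adamts10* rose (1.37).

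Profibrotic signaling had 34 tested genes, of which 5 fell and 1 rose (7.83% of all tested genes fell and 8% rose). *Tgfb1*, the main profibrotic cytokine, was 32.6, 22.8, 32.1 and 21.4 CPM in controls and 16.8, 17.2 and 11.4 CPM in livers labeled hep-/-, a log2 fold change of -0.85 (edgeR adjusted p = 0.0311). *Tgfbr2*, its signaling receptor, was 38.8 to 59.4 CPM against 15.6 to 24.3 CPM (-1.21, edgeR adjusted p = 0.00732). *Plau*, the urokinase that activates plasmin, fell by 1.33 on the log2 scale (edgeR adjusted p = 0.00581), and *Smad2*, which relays the TGF-beta signal, fell by 0.87 (adjusted p = 0.0202).

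Members of the set tended to move together from mouse to mouse within a genotype. Among controls, replicate 4 had the lowest level for 38 of the 61 genes (62.3%, against 25.7% of all tested genes), and replicate 1 had the highest for 37 (60.7%, against 28.6%). Among livers labeled hep-/-, replicate 2 had the highest level for 40 genes (65.6%, against 37.7% of all tested genes) and replicate 3 the lowest for 40 (65.6%, against 30.5%). *Col1a1*, *Col1a2*, *Col3a1*, *Col6a1* and *Pdgfrb* had their lowest values in those same mice, control replicate 4 and replicate 3 labeled hep-/-. Summed levels of marker lists for some cell types, but not others, were also lowest within each genotype in those mice. The cholangiocyte and macrophage lists both hold *Spp1*, so their sums are not independent, and every sum weighs its genes by their level. The sum of 10 cholangiocyte markers was 603, 765, 685 and 341 CPM in controls and 502, 1004 and 349.5 CPM in livers labeled hep-/-. The sum of 15 macrophage markers was 1376 CPM in control replicate 4 and 922 CPM in replicate 3 labeled hep-/-, against 1825 to 2758 and 1053 to 1475 CPM in the others of each genotype. The sum of 12 portal fibroblast and mesothelial markers was 49.8 and 58.9 CPM in those mice, and that of 7 smooth muscle markers was 22.9 and 24.1 CPM. The 13 hepatocyte markers summed highest there, at 142506 and 175132 CPM. The sums for 4 other cell types were not lowest in control replicate 4, which had 457 CPM of stellate cell markers (lowest control 395), 237 CPM of endothelial markers (lowest 171), 23.6 CPM of lymphocyte markers (lowest 14.5) and the highest control sum of neutrophil markers, 39.4 CPM. Genes of the set are not independent of one another, and the part of these cell types in the differences was not tested.

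Cell type markers were read beside these genes, and in bulk liver fewer cells of a type and less RNA per cell cannot be told apart. Of 15 macrophage markers tested, 6 fell and 0 rose (*Adgre1*, *Cd68*, *Gpnmb*, *Marco*, *Trem2* and *Vsig4*), where 7.83% of all tested genes fell, and their median log2 fold change was -0.77. Their sum was 1376 to 2758 CPM in controls and 922 to 1475 CPM in livers labeled hep-/-. *Cd68*, a macrophage lysosomal protein, was 119, 118, 143 and 77.2 CPM in controls and 49.0, 60.4 and 45.3 CPM in livers labeled hep-/-. Relative to *Cd68*, the FPKM ratio of *Mmp12* was 1.04 to 1.76 in controls and 0.926 to 1.25 in livers labeled hep-/-, and that of *Timp2* was 0.191 to 0.259 and 0.206 to 0.235. The ratio of *Mmp19* to *Cd68* was 0.0947 to 0.183 and 0.119 to 0.195. All 3 ratios overlapped between the groups, and they were chosen after the values were seen. The part of macrophages in the lower levels of *Mmp12*, *Mmp13*, *Mmp19*, *Mmp15*, *Timp2* and *Lum* was not tested.

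Markers of the cells that make scar collagen overlapped between the genotypes. The sum of 15 stellate cell markers was 395 to 571 CPM in controls and 448 to 509 CPM in livers labeled hep-/-, and 2 of 14 tested were called, *Ngfr* lower and *Hand2* higher. Of all tested genes 15.8% were called, the share to read beside each count of called markers here. None of 7 tested portal fibroblast and mesothelial markers was called (50 to 111 CPM summed in controls, 59 to 105 CPM in the other group), and of 4 tested smooth muscle markers *Myh11* rose. Among 12 endothelial markers *Kdr* fell while *Stab1* and *Egfl7* rose. None of the tested neutrophil, cholangiocyte, hepatocyte and lymphocyte markers (9, 10, 13 and 8 genes) was called. No listed marker present in the table was at 0 in all libraries.

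**Figure D5:**
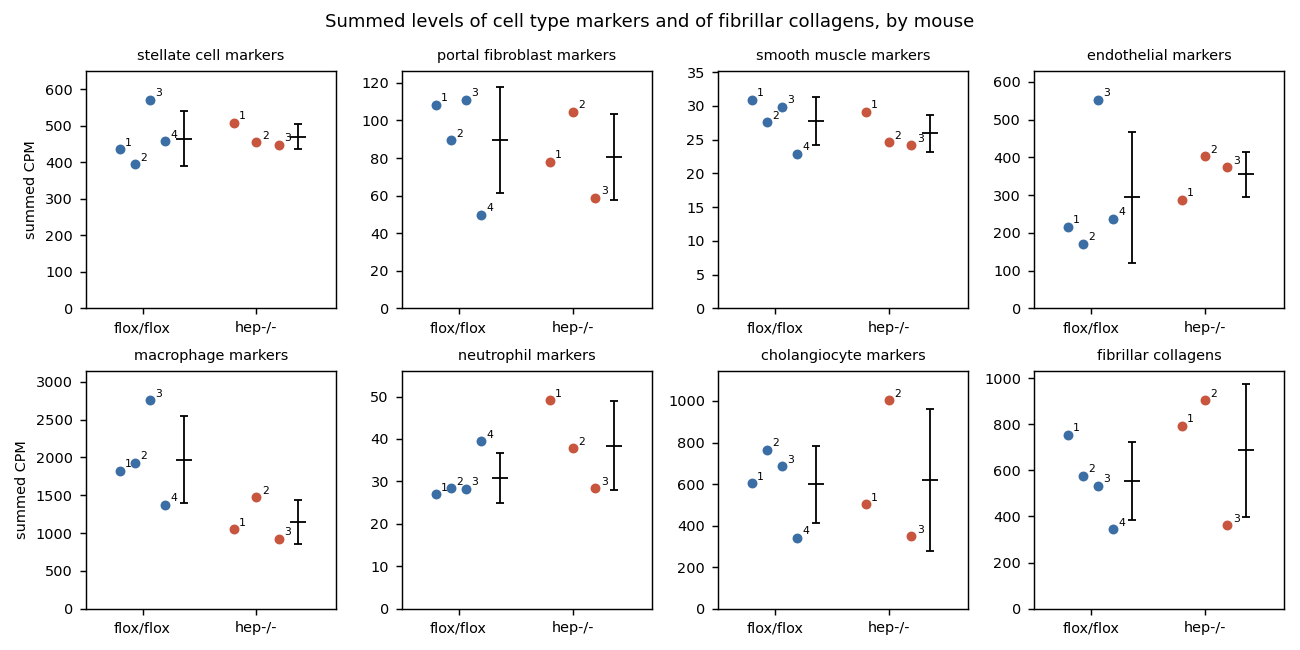
Summed TMM-normalized CPM per mouse for 7 lists of cell type markers and for the fibrillar collagens, with the replicate number beside each point and the mean ± SD as a bar. Macrophage markers are lower in livers labeled B4galt1 hep-/- apart from replicate 2, which lies above control replicate 4, whereas stellate cell markers and fibrillar collagens overlap.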

How the data were processed

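Liver RNA was measured by RNA sequencing in 4 *B4galt1* flox/flox mice and 3 mice labeled *B4galt1* hep-/-, grouped by the sample labels. The authors extracted RNA with TRIzol and made libraries with a VAHTS Universal V6 kit; the submitters' processing notes name fastp, HISAT2, HTSeq, DESeq2, R 3.2.0 and GRCm39, while the annotation and the strand setting of the counting are not given in the sources used here. The deposited count table holds whole-number counts per gene and mouse, not normalized. The deposited FPKM values equal count over length over library total (checked over 13374 genes). A count of 3 equals 0.0690 to 0.0987 CPM, and no sample column was left unused.

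Genes were kept by filterByExpr (minimum count 10, minimum total 15), scaled with TMM factors, and compared between genotypes by the quasi-likelihood test of edgeR 4.0.16 (R 4.3.3) with no covariate, adjusting p-values over 15179 genes by Benjamini-Hochberg. Standard errors and 95% intervals of log2 fold changes came from the F statistic. CPM are TMM-normalized. Nothing in the labels ties mice together by litter or batch. The scripts were tested on simulated data. No 2 libraries agreed within counting noise (lowest chi-square per gene over 21 pairs 60.3).

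Tried instead were DESeq2 1.42.0, 2 other scalings (RLE, upper quartile), 3 count filters, limma 3.58.1 on FPKM with pseudocounts of 1 and 0.1 where 3 libraries reached 1 FPKM or (pseudocount 1) any library was above 0, leaving out the mitochondrially encoded genes, the replicate number as a block, no fold change threshold, and leaving out each mouse.

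Genes named were 24 core fibrosis genes, every gene called, the 5 largest changes not called, and the 3 with the highest FPKM in controls, plus called genes of the 4 pathway lists, at most 4 per list and direction. A called gene of these lists is counted in their totals but not reported here. The members and lists were chosen with earlier results of these data known. Promoter windows and gene neighbors came from RefSeq on GRCm38.p6; the counts were made on GRCm39, so the coordinates printed are those of the promoter windows on GRCm38.p6 alone. Fold changes of the FPKM fits are on the log2(FPKM + pseudocount) scale, which understates low genes.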

Additional observations from a re-analysis of the deposited data

Results flagged for a closer look

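In the controls, the level of 36 named values was checked for a mouse far from the other 3 (Dixon's test, gap over range above 0.829), and 3 were found, where chance alone flags about 1 in 20. *Col3a1* was 141 CPM in control replicate 4, with the next control at 249 CPM. *Lum* was 145 CPM in control replicate 3, with the next control at 71.4 CPM. *Col7a1* was 0.897 CPM in control replicate 1, with the next control at 0.164 CPM. The values of *Lum* and *Col7a1* without these mice stand beside their results.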

How the results depend on the processing

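Of the 10 called genes, *Mmp12* and *Mmp19* were called in each of 18 alternatives and *Col11a2* and *Col4a3* in 15 of 16. *Timp2* was called in 15 of 18, *Lum* in 13, *Mmp13*, *Col27a1* and *Col5a3* in 10 each, and *Mmp15* in 8. *Col1a1*, *Col1a2*, *Col3a1*, *Acta2*, *Timp1*, *Timp3* and *Lox* were called in 0 alternatives.

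The number of genes called was 13 of 79 by DESeq2, which added *Fn1*, *Col9a3*, *Col13a1* and *Col20a1* and lost *Col27a1*, and limma on log2(FPKM + 1) over all genes above 0 called 2, both lower and 0 higher, with 7 of the genes of the 4 pathway lists. DESeq2 called 16.5% of the set and 14.3% of all genes it tested, and that limma fit called 2.53% and 5.79%. Both limma fits on genes with FPKM of at least 1 called 0 higher (7 lower). Those 7 were 17.9% of the tested set, where the fits with pseudocounts of 1 and 0.1 called 21% and 23.3% of all genes. *Col11a2* and *Col4a3* were not among the genes they tested, and *Col5a3* (log2 fold changes 0.67 and 0.98, adjusted p = 0.115 and 0.109) and *Col27a1* (0.99 and 1.43, adjusted p = 0.104 and 0.0876) lost their calls. The cause was not tested. Keeping genes with at least 1 count called 14 genes, 7 of them higher (17.7% of the set, against 12.3% of all genes), and DESeq2 called 22 genes of the pathway lists.

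Leaving out 1 mouse gave 5 to 12 genes called, 3 to 6 lower, 2 to 7 higher, and 5 to 15 of the pathway lists, with median log2 fold changes of -0.18 to 0.25. The called share of the set was 7.81% to 20% in these fits, where 5.9% to 16.1% of all tested genes were called. The total was 5 without control replicate 2 (8.2%, against 5.9% of all tested genes) or replicate 2 labeled hep-/- (7.81%, against 7.76%). It was 6 without replicate 1 labeled hep-/- (9.23%, against 11.7%). Lower calls numbered 3 without control replicate 2 or any 1 of the livers labeled hep-/-. Higher calls numbered 2 without control replicates 2 or 4 or replicate 2 labeled hep-/-, and 7 without control replicate 1. Pathway calls numbered 5 without control replicate 2 and 9 without control replicate 3.

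Log2 fold changes near 0 changed sign. In the limma fits on FPKM, where the median of all tested genes lay at -0.14 and -0.18 for pseudocounts of 1 and 0.1, *Mmp14* was at -0.026 and -0.027, *Timp1* at -0.034 and -0.050 and *Acta2* at -0.056 and -0.076, and with all genes above 0 they were at -0.026, -0.034 and -0.056. Over the fits without 1 mouse, *Col1a1* ranged from -0.20 to 0.61, *Col1a2* from -0.039 to 0.53, *Col3a1* from -0.13 to 0.57, *Col6a1* from -0.25 to 0.46, *Mmp14* from -0.089 to 0.22, *Timp1* from -0.11 to 0.41, *Timp3* from -0.18 to 0.45, *Lox* from -0.27 to 0.088, *Acta2* from -0.24 to 0.21, *Pdgfrb* from -0.61 to 0.28 and *Dcn* from -0.47 to 0.050. The cause was not tested.

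Replicate numbers are shared by mice that nothing ties together, and same-numbered mice did not deviate together (r of -0.356, -0.0447 and 0.0814 over genes). With the replicate block, in which control replicate 4 has no counterpart and drops out, 9 genes were called (5 lower, 4 higher) and 10 of the pathway lists. The 9 were 14.8% of the set, where 8.35% of all tested genes were called. *Mmp13* (adjusted p = 0.157) and *Mmp15* (0.0924) were not called under the block, and *Mmp2* was (log2 fold change -1.35, adjusted p = 0.0302). In that fit the median log2 fold change was -0.10, and *Col1a1* was at -0.026, *Col3a1* at -0.065, *Col6a1* at -0.071, *Timp3* at -0.10 and *Acta2* at -0.10. Depth limits *Col24a1*, *Col7a1*, *Col8a1*, *Col9a3*, *Col20a1*, *Col11a2*, *Col4a3*, *Mmp9* and *Mmp13*, which had 1 to 53 counts in their lowest library.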
